A study of Bos taurus with 12 samples.

Results

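Expression of 9 genes of the complement system was compared between the stroma and the epithelium of the bovine mammary gland within each cow. The genes were chosen by name, with earlier results of these data known. Of 9155 genes on the array with at least 1 probe set of 1 gene symbol, these are the components C1QA, C1QB, C1R, C1S, C3, CFB and C7 and the regulators SERPING1 and CFI. They have 12 probe sets, all of which were taken (3 for C3, 2 for SERPING1 and 1 for every other gene). The gene IDs of all 12 matched the RefSeq symbols of the cattle assembly ARS-UCD2.0. In that annotation, C1R and C1S are adjacent genes, C1QA and C1QB lie within 5 coding genes of each other on either side of C1QC, and CFB is next to C2.

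The complement system is a cascade of secreted proteins that marks microbes and cell debris for removal. Its classical pathway begins with the C1 complex, in which the recognition protein C1q holds the proteases C1r and C1s. C1s cleaves C4 and C2, factor B serves the alternative pathway, both routes act on C3, and C7 is a subunit of the terminal pore. SERPING1, the C1 inhibitor, blocks C1r and C1s, and CFI, the protease factor I, inactivates the activated forms of C3 and C4. In the mammary gland, complement is part of innate defence against infection and also reaches milk.

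The captures came from biopsies of 6 pregnant dry Holstein cows, taken 3 weeks before calving and cultured as explants for 2 h with insulin, hydrocortisone and BrdU. From frozen sections, epithelium and the stroma inside the lobules were cut out by laser for each cow, which gave 12 Bovine GeneChip arrays, 6 for each tissue. All samples shared this culture, and no uncultured or lactating gland is compared here. The methods call the cows multiparous, while the labels give a lactation number of 1 for 4 of them, and ages were not given. Lysates of several slides were pooled for each capture. The stromal captures were meant to be rich in fibroblasts, and blood vessels and visible immune cells were avoided during cutting, although the captures remain mixtures of cells.

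Values are log2 RMA values, which are background corrected and quantile normalized. Differences are stroma minus epithelium. Their standard errors are those of the limma fit, in which the spread of each probe set is drawn towards that of all probe sets fitted. They are not the plain errors of the 6 within-cow differences. The test was limma with cow as a block and Benjamini-Hochberg adjustment over the 10000 brightest probe sets, with a threshold of 0.05. The medians of the arrays lay between 2.95 and 3.08. A value under them is near background, and a fold against it is not exact. Levels are compared for the same probe set only.

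The captures carried the markers of their labelled tissue, and stroma also some markers of other cell types. Epithelium had the greater level of all 10 tested luminal markers, and stroma that of all 10 tested fibroblast markers. KRT8, a luminal keratin, was greater in epithelium by 8.05-fold (adjusted p = 0.00151), and COL1A1, a collagen chain, was greater in stroma by 43.0-fold (adjusted p = 0.000969). Of 5 tested endothelial markers, 4 were higher in stroma, with CDH5 at 32.1-fold (adjusted p = 0.000237). The sole tested plasma cell marker, JCHAIN, rose from 5.07 to 11.35 in stroma (adjusted p = 0.000352), and none of 4 tested T and NK cell markers passed. The mean of 5 tested myoepithelial markers was higher in the stroma of all 6 cows, by 1.18 on average, with MYLK alone called, at 4.27-fold (adjusted p = 0.0243). ACTA2 and CNN1 differed by 1.58 and 1.30 (adjusted p = 0.237 and 0.122). The keratins KRT5 and KRT14 differed by 0.30 and 0.65 (adjusted p = 0.773 and 0.620). FABP4, the sole tested adipocyte marker, was called at 16.2-fold in stroma (adjusted p = 0.00203). The other adipocyte markers on the array, ADIPOQ, LEP and CIDEC, averaged 2.07, 2.18 and 2.23 in stroma, under the array medians. The part of these cell types in the differences of the complement genes was not tested. The array of epithelium from cow 3 had the lowest mean correlation with its own tissue among the epithelial arrays (0.728), and that of stroma from cow 5 had the lowest among the stromal arrays (0.577). The added polyadenylated control RNA averaged 2.91 to 6.05 in epithelium and 3.88 to 9.99 in stroma, and was highest in the stroma of cows 5 and 6. Over all tested probe sets the median difference was -0.185. No batch was given in the labels.

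Genes of the C1 proteases, C7 and, in its brighter probe set, the C1 inhibitor were expressed at a greater level in stroma. Factor I was expressed at a greater level in epithelium. Of the 8 genes with a tested probe set, stroma had the greater level of 4, epithelium that of 1, and 3 did not pass. By the same test, 9.11% of all 5212 tested genes were called, 4.49% as higher in stroma and 4.62% as higher in epithelium. Counted as probe sets, 5 of 10 passed, against 9.31% of the 10000 tested (4.54% in stroma and 4.77% in epithelium). The filter took the highest means over both tissues, so a gene could enter through the tissue where it is high. C7 and C1R in epithelium (means 2.16 and 3.15) and CFI in stroma (2.73) lay under the cut-off of 3.57. When all 24016 probe sets were tested, 811 were called. Of the 9 genes, 4 then passed (C1R, C1S, CFI and SERPING1). Among the components, 3 of 6 were higher in stroma (C1R, C1S and C7) and 0 in epithelium, with 3 not passing (limma). Without adjustment C1QB also passed at 0.05, which made 6 of 8 genes against 23.1% of all tested genes, and still 0 components in epithelium. The regulators moved in opposite directions, SERPING1 higher in stroma in its brighter probe set and CFI higher in epithelium. The second SERPING1 probe set differed by 0.28 and did not pass (adjusted p = 0.818). The median difference was 1.26 over the 8 genes and -0.20 over all tested genes. Since the genes were chosen with earlier results of these data known, these counts and medians are a description and not a test of the set. Relative to the median of the tested probe sets, the differences of C1R, C1S, C7, SERPING1 and CFI were 2.09, 3.59, 4.61, 1.64 and -2.25. In captured tissue, a larger number of expressing cells and more RNA in each cell cannot be told apart.

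**Figure D1:**
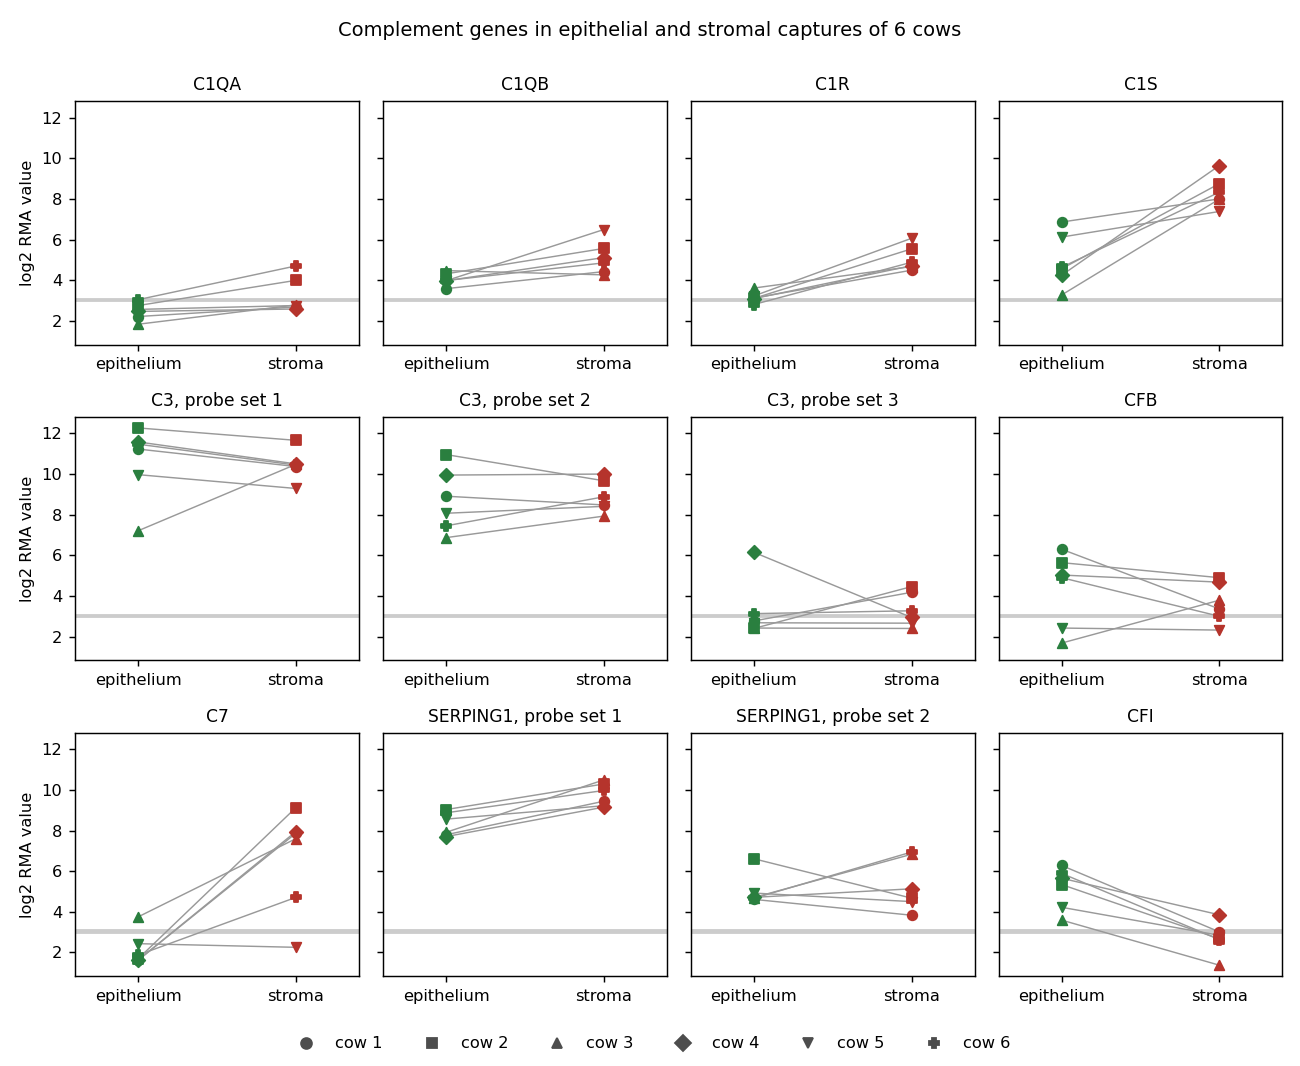
Log2 RMA value of each probe set in epithelium (green) and stroma (red). Each symbol is a cow, each line joins both captures of that cow, and the grey band spans the array medians. C1R, C1S and the brighter SERPING1 probe set show no overlap between tissues, CFI falls in all 6 cows, and the lines of the brightest C3 probe set and of CFB rise in cow 3 alone.

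C1S, the protease of the C1 complex that cleaves C4 and C2, ranged from 3.27 to 6.86 in epithelium (median 4.59) and from 7.38 to 9.64 in stroma (median 8.16). The tissues did not overlap. C1S was higher in stroma by 10.6-fold, a log2 difference of 3.40 with a standard error of 0.63 (adjusted p = 0.0111). The within-cow differences formed a low and a high set. They were 1.14 in cow 1 and 1.26 in cow 5, where epithelium read 6.86 and 6.12, and 3.70 to 5.41 in the other cows, where epithelium read 3.27 to 4.63. Stroma of cow 5 also had the lowest stromal value, 7.38.

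C1R, the protease that activates C1s, ranged from 2.80 to 3.61 in epithelium (median 3.11) and from 4.49 to 6.06 in stroma (median 4.80). The stromal arrays lay above all epithelial arrays, which were close to the array medians, so the fold is not exact. The difference was 1.90 with a standard error of 0.37 (3.74-fold, adjusted p = 0.0137). It ranged from 1.06 in cow 3 to 2.84 in cow 5 and was positive in all 6 cows. The adjacent genes C1R and C1S therefore both rose in stroma, but cow 5 gave the largest difference for C1R and the second smallest for C1S. The call for C1R was lost without cow 2 (adjusted p = 0.0501) and without cows 5 and 6 (adjusted p = 0.0847), with differences of 1.80 and 1.63.

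C7, which joins the terminal pore after C5b and C6, was near background in epithelium and widely spread in stroma. Its epithelial values ran from 1.62 to 3.75 (median 1.78), of which 5 of 6 lay below the lowest array median. In stroma it read 7.87, 9.13, 7.60 and 7.95 in cows 1 to 4, 2.25 in cow 5 and 4.71 in cow 6. Stroma of cow 5 was thus at the epithelial level, and its difference was -0.18 while the other cows differed by 2.84 to 7.44. The mean difference was 4.42 with a standard error of 0.92 (21.4-fold, adjusted p = 0.0186). The stromal SD of 2.58 was higher than that of 99.3% of tested genes. The call was lost without cow 1, 2 or 4 (adjusted p = 0.0654, 0.0572 and 0.0610) and when all 24016 probe sets were tested (0.0624).

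**Figure D2:**
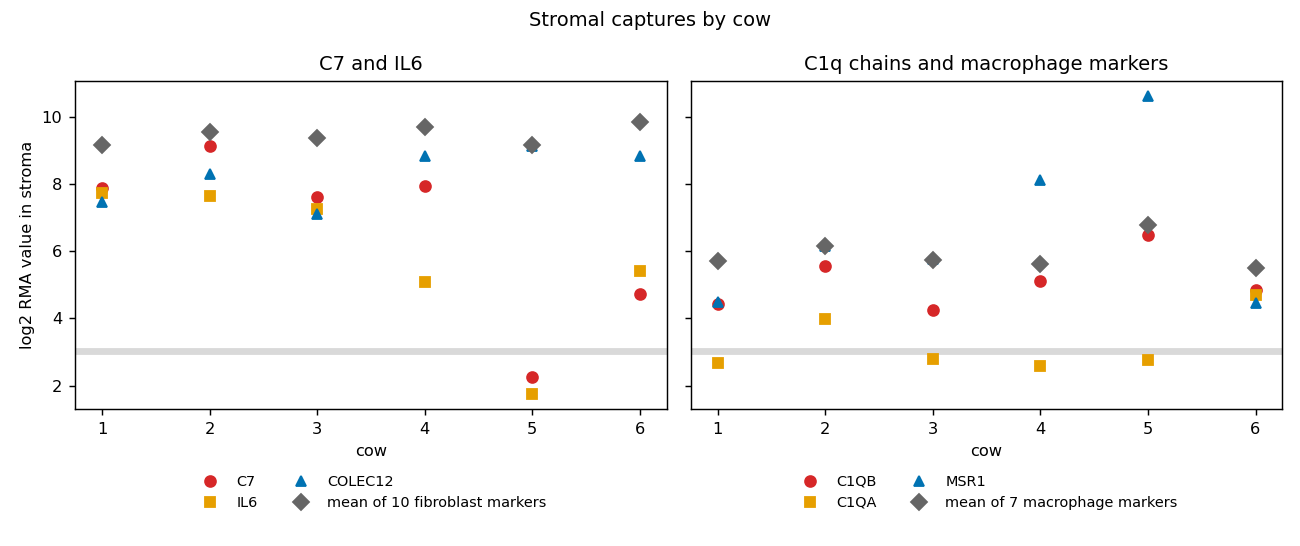
Log2 RMA values in the stromal captures by cow, for C7 and IL6 with COLEC12 and the mean of 10 fibroblast markers (left), and for C1QA and C1QB with MSR1 and the mean of 7 macrophage markers (right). The grey band spans the array medians. C7 and IL6 fall below the band in cow 5 where the fibroblast mean is 9.17. C1QB and MSR1 are each highest in cow 5, as is the macrophage mean, which includes MSR1, while C1QA is at 2.75.

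The gene whose 12 array values were most alike to those of C7 was IL6, an inflammatory cytokine (Pearson r = 0.95 over 12 arrays of both tissues, a description in which the tissue contrast has a share), followed by CTNNAL1 and AQP1 at 0.92 each. IL6 also read 1.74 in the stroma of cow 5, against 5.08 to 7.74 in the stroma of the other cows. The mean of the 10 tested fibroblast markers was 9.17 in the stroma of cow 5, the lowest but that of cow 1 (9.16), with 9.37 to 9.84 in the other cows. The fibroblast difference between tissues was smallest in cow 5, at 3.30, where the fibroblast mean in epithelium was 5.87, the highest of the epithelial captures. COLEC12 read 9.14 in the stroma of cow 5, its highest value. Control RNA was also highest there. The part of fibroblast content or control RNA in the low C7 and IL6 values was not tested.

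C1QA and C1QB, chains of C1q, which macrophages and dendritic cells make, did not pass the test. C1QB ranged from 3.58 to 4.47 in epithelium (median 3.97) and from 4.26 to 6.49 in stroma (median 4.98). It was higher in the stroma of 5 of 6 cows, and the tissues overlapped. The difference was 1.07 with a standard error of 0.41 and a 95% interval of 0.14 to 2.00 (adjusted p = 0.154). Cow 3 ran the other way with -0.22, and cow 5 gave the largest difference, 2.52. C1QA was dim and lay outside the tested probe sets, with 1.83 to 3.04 in epithelium (median 2.51) and 2.58 to 4.70 in stroma (median 2.77). Only stroma of cow 2, at 3.99, and of cow 6, at 4.70, rose above the highest array median. In a fit of all 24016 probe sets the C1QA difference was 0.77 with a 95% interval of 0.15 to 1.40 (limma, adjusted p = 0.202).

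Macrophage markers differed among themselves. Of 7 tested markers, 1 was higher in stroma and 6 did not pass. The one that passed was MSR1, a scavenger receptor, at 9.16-fold (adjusted p = 0.0481). CD68, a lysosomal protein of macrophages, was 2.53-fold higher in stroma (adjusted p = 0.199), and CD14, a coreceptor for bacterial lipopolysaccharide, was at 5.92 in epithelium and 5.91 in stroma (adjusted p = 0.990). CSF1R, the receptor for macrophage growth factor, lay outside the tested probe sets, at 3.18 in epithelium and 3.95 in stroma. The mean over the 7 markers ran from 4.27 to 5.07 in epithelium and from 5.49 to 6.77 in stroma, with its highest value in the stroma of cow 5. That mean includes MSR1, which read 10.62 there against 4.45 to 8.11 in the stroma of the other cows. C1QB was also highest in that capture, at 6.49, whereas CSF1R was at its stromal minimum, 3.09, and C1QA read 2.75. In cow 6 MSR1 was lower in stroma, by -0.49, and C1QB higher. The part of macrophage content in the C1QB values was not tested. The genes most alike to C1QB over the 12 arrays were LOC521746, OSR2 and PLSCR2, at r = 0.94, 0.91 and 0.89. Those most alike to C1QA were SOX4, ENTPD1 and ST3GAL5, at r = 0.87, 0.87 and 0.86.

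C3, on which all pathways converge, showed no difference that passed the test in any of its tested probe sets. In the brightest, epithelium ranged from 7.21 to 12.27 (median 11.35) and stroma from 9.29 to 11.66 (median 10.46). The mean difference was -0.17 with a 95% interval of -1.54 to 1.20 (adjusted p = 0.898). In this probe set the mean hid a split among cows. In cows 1, 2, 4, 5 and 6 C3 was higher in epithelium, with differences of -1.09 to -0.61, and in cow 3 it was higher in stroma by 3.27. Epithelium of cow 3 read 7.21, against 9.97 to 12.27 in the other epithelial captures, while its stroma, at 10.48, lay within the stromal range. Without cow 3 the difference was -0.85 and did not pass (adjusted p = 0.213). The sign of this small difference turned under 5 alternatives, with values up to 0.18.

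The other C3 probe sets did not show the same split. The second differed by 0.19 with a 95% interval of -0.79 to 1.17 (adjusted p = 0.830), and was higher in the stroma of 4 of 6 cows. These were cows 3, 4, 5 and 6, with differences of 1.05, 0.053, 0.34 and 1.43. In this probe set epithelium also read lowest in cow 3, at 6.87, with a range of 6.87 to 10.96. The third was dim, at 2.40 to 4.46 in stroma, and in epithelium it exceeded 3.13 only in cow 4, at 6.15.

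CFB, the protease of the alternative pathway convertase, showed the same cow apart. Its values in epithelium were 6.30, 5.64, 1.68, 5.03, 2.42 and 4.90 in cows 1 to 6, and in stroma 3.36, 4.90, 3.79, 4.68, 2.32 and 3.00. CFB was higher in epithelium in 5 of 6 cows, with differences from -0.095 in cow 5 to -2.94 in cow 1, and higher in stroma by 2.11 in cow 3. The mean difference was -0.65 with a 95% interval of -2.04 to 0.73 (adjusted p = 0.564), and without cow 3 it was -1.21 (adjusted p = 0.222). The genes most alike to C3 over the 12 arrays were CFB, TGOLN2 and UBE2G1, at r = 0.85, 0.85 and 0.83. Those most alike to CFB were others, UBXN8, MTHFD2 and GSK3A, at r = 0.94, 0.91 and 0.89. The epithelial spread of both genes was wide, with an SD of 1.83 for C3 and 1.85 for CFB, higher than that of 97.5% and 97.6% of tested genes. In stroma their SDs were 0.75 and 0.99, against a median of 0.99 over all tested genes.

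Epithelium of cow 3 was the capture in which C3 (in both tested probe sets), CFB, C1S, CFI and C1QA each read lowest among the epithelial arrays. C7, C1R and C1QB read highest there, at 3.75, 3.61 and 4.47. The luminal markers averaged 7.92 in that capture, lower than in all other epithelial captures (8.29 to 8.83) except that of cow 5 (7.74). It had the smallest gap between the 3′ and 5′ probe sets of GAPDH, at 0.93 against 2.30 to 3.59 in the other epithelial captures, and the highest control RNA among them, at 6.05. The part of these in the low and high values was not tested.

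**Figure D3:**
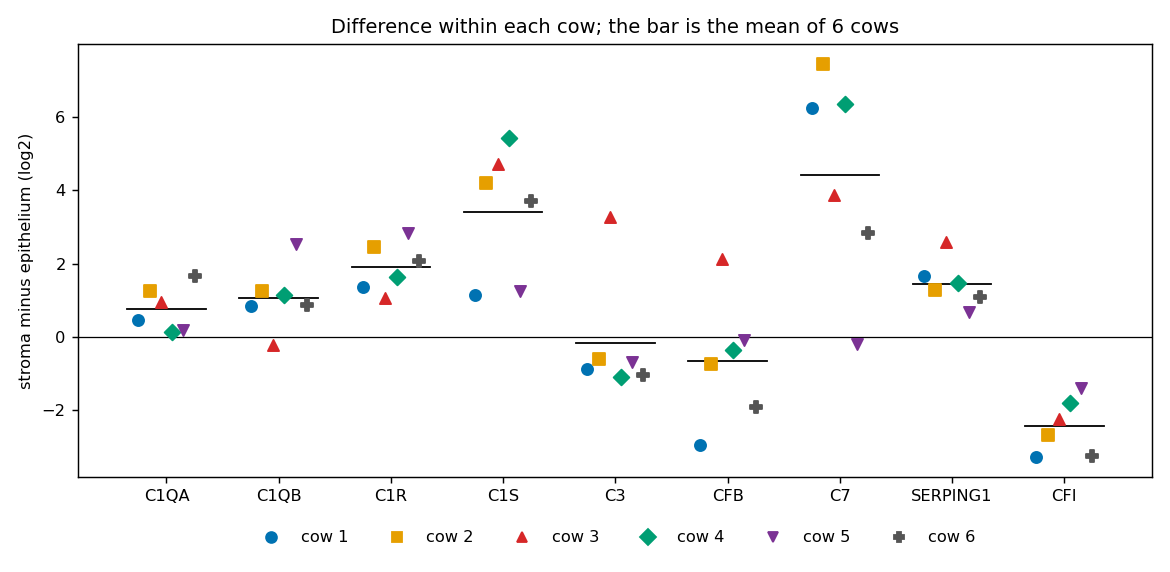
Stroma minus epithelium difference of each gene in each cow (log2), in its brightest tested probe set, or for C1QA its sole one. Symbols are cows and black bars are means of 6 cows. Cow 3 lies above 0 for C3 and CFB while the other cows lie below it, and cow 5 lies at -0.18 for C7.

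SERPING1, the inhibitor of C1r and C1s, was high in both tissues and higher in stroma in its brighter probe set. That probe set ranged from 7.70 to 9.03 in epithelium (median 8.24) and from 9.15 to 10.49 in stroma (median 9.71). The tissues did not overlap, and stroma was higher in all 6 cows, by 0.67 in cow 5 to 2.58 in cow 3. Stroma was higher in all 6 cows for 7.00% of tested genes. The mean difference was 1.45 with a standard error of 0.37 (2.74-fold, adjusted p = 0.0407). C1S and, in this probe set, its inhibitor were thus both higher in stroma. Stromal C1S was highest in cow 4, at 9.64, where stromal SERPING1 was lowest, at 9.15. The SERPING1 call was close to the threshold and was lost without cow 1, 2, 3, 4 or 6 (adjusted p = 0.113, 0.0898, 0.0985, 0.0970 and 0.0736) and without cows 5 and 6 (0.0693), with differences of 1.23 to 1.74.

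The second SERPING1 probe set, assigned to the same gene, did not show this difference. It ranged from 4.61 to 6.61 in epithelium (median 4.70) and from 3.83 to 6.94 in stroma (median 4.90), was higher in the stroma of 3 of 6 cows, and differed by 0.28 with a 95% interval of -1.08 to 1.64 (adjusted p = 0.818), a sign that turned without cow 3 or 6. With the mean of both probe sets standing for the gene, the difference was 0.87 (adjusted p = 0.237). Disagreement of this kind was common on the array. Of 145 genes with several tested probe sets and at least 1 call, 108 (74.5%) had a call in some of them and not in all.

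CFI, the protease that cleaves C3b and C4b with the help of cofactors, was the sole gene of the 9 called higher in epithelium. It ranged from 3.59 to 6.28 in epithelium (median 5.50) and from 1.37 to 3.85 in stroma (median 2.75). Epithelium was higher in all 6 cows, by 1.39 to 3.27 on the log2 scale, a direction shared by 9.61% of tested genes, and the tissues overlapped only through the lowest epithelial value, in cow 3. The mean difference was -2.43 with a standard error of 0.39 (5.40-fold, adjusted p = 0.00550). The stromal mean of 2.73 lay under the array medians, so the fold is not exact. CFI passed under all 14 alternatives that tested its probe set, and C1S under all 15. The genes most alike to CFI over the 12 arrays were CYB561, STEAP3 and CDH1, at r = 0.95, 0.94 and 0.92, and CDH1 is the cadherin of epithelial junctions. Those most alike to C1S were TFPI2, CCDC80 and S100A4, at r = 0.94, 0.94 and 0.93, each higher in stroma (adjusted p = 0.00395, 0.00198 and 0.00130).

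In C1R, C1S and the brighter SERPING1 probe set, all stromal arrays lay above all epithelial arrays, which was so for 3.42% of tested genes. The reverse order held for 2.97% of tested genes and for none of the 8. Over the epithelial arrays C1R and C1QB varied little, with SDs of 0.26 and 0.31, and 4.59% and 7.90% of tested genes had a smaller one. The most alike genes of C1R were ANTXR2, LOC508666 and POU2AF1, each at r = 0.96, and POU2AF1 is a coactivator of B cells. Those of SERPING1 were DCN, GPC3 and EMCN, at r = 0.90, 0.89 and 0.89, of which DCN is a matrix proteoglycan of fibroblasts and EMCN an endothelial sialoprotein.

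The wider complement system was sampled by a second list. Of 48 further genes of the cascade, its regulators and its receptors, 33 were on the array with 1 symbol and 12 were tested. Of these 12, stroma had the greater level of 2 and epithelium that of 1, and 9 did not pass. Over all tested genes, 4.49% were called in stroma and 4.62% in epithelium. The median difference of the 12 was 0.43. COLEC12, a scavenger receptor with a collectin domain, ranged from 1.69 to 3.65 in epithelium and from 7.10 to 9.14 in stroma, without overlap, and was 68.2-fold higher in stroma (log2 standard error 0.40, adjusted p = 0.000156). CD93, an endothelial glycoprotein once described as a receptor for C1q, ranged from 1.36 to 2.19 in epithelium and from 3.28 to 6.95 in stroma, and was 12.3-fold higher in stroma (log2 standard error 0.57, adjusted p = 0.00507). Epithelial means of both lay below the array medians, so these folds are not exact. The endothelial markers PECAM1 and CDH5 were also higher in stroma, by 15.4-fold and 32.1-fold, and the part of vessel content in CD93 was not tested.

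CLU, clusterin, a secreted chaperone that restrains the terminal pore, had a difference of -1.77 with a standard error of 0.40 (3.42-fold higher in epithelium, adjusted p = 0.0249). It read 6.47 to 9.17 in epithelium and 4.93 to 7.81 in stroma and was higher in the epithelium of all 6 cows, although the ranges overlapped. The call did not hold when cow 1, 2, 3 or 4 was left out (adjusted p = 0.0563 to 0.0791), without cows 5 and 6 (0.0505) and without the cow block (0.0644).

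Among those that did not pass, CD46, a membrane cofactor for factor I, read 8.63 in epithelium and 8.58 in stroma in its brightest probe set (adjusted p = 0.950, 95% interval of the difference -0.86 to 0.76), a sign that turned after centring on the median (0.13). With the mean over its tested probe sets the CD46 difference was -0.54 (adjusted p = 0.323). C1QBP, a mitochondrial protein that binds C1q in vitro, differed by -1.89 and was higher in the epithelium of all 6 cows (adjusted p = 0.106). C5AR2, a receptor for C5a, differed by 0.10 with a 95% interval of -1.85 to 2.05 (adjusted p = 0.961), and its sign turned without cow 2 or 3. C4A and C2, the substrates of C1s, are given for that role and were chosen after their values were seen. C4A differed by 1.72 (95% interval 0.50 to 2.93, adjusted p = 0.0854) and was higher in the stroma of 5 of 6 cows, with the exception again cow 3, at 5.88 in epithelium and 4.76 in stroma. It passed in 2 of 14 alternatives, without cow 3 (difference 2.28, adjusted p = 0.0112) and with cows as a random block (adjusted p = 0.0464). C2, the neighbour and relative of CFB, differed by 2.38 (95% interval 0.29 to 4.47, adjusted p = 0.158) and was higher in the stroma of every cow but cow 5. It passed in 2 of 14 alternatives, without cow 5 (difference 3.38, adjusted p = 0.0150) and without cows 5 and 6 (2.79, adjusted p = 0.0246).

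**Figure D4:**
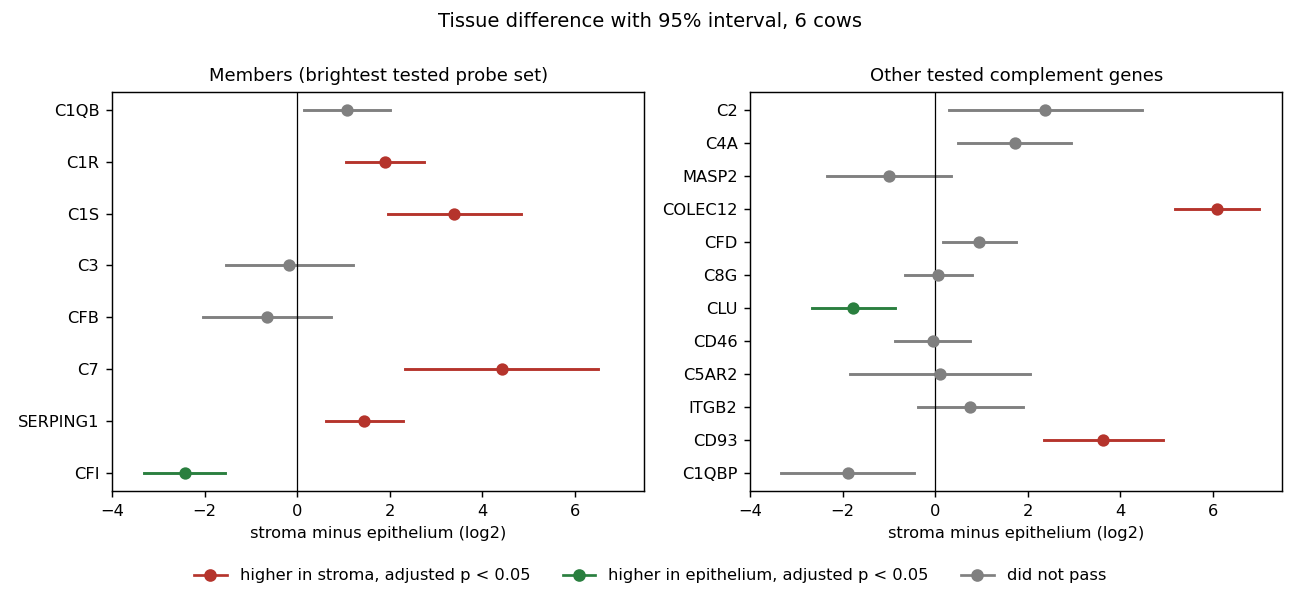
Stroma minus epithelium difference (log2, mean of 6 cows) with its 95% interval from limma, for the 8 tested genes (left) and 12 other tested complement genes (right). Red and green mark an adjusted p under 0.05 and grey marks genes that did not pass. C1R, C1S, C7, SERPING1, COLEC12 and CD93 lie to the right, and CFI and CLU to the left.

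Of 17 cytokines, receptors and transcription factors known to raise complement transcription, 9 were tested, of which 1 passed as higher in stroma and 8 did not pass, a share near the 9.11% of all tested genes. IL6 was 17.2-fold higher in stroma (log2 standard error 0.74, adjusted p = 0.00992), with an epithelial mean of 1.71 below the array medians. It was higher in stroma in all 6 cows, by the least in cow 5, where it read 1.61 and 1.74. None of the 5 tested transcription factors passed. Their means were higher in epithelium, as were those of 3128 of all 5212 tested genes, and their median difference was -0.27 against -0.20 over all tested genes. STAT3, which carries the IL6 signal, differed by -0.27 (adjusted p = 0.722), and CEBPB, a factor of the acute phase response, by -0.59 (adjusted p = 0.447). TNFRSF1A, a receptor for tumour necrosis factor, differed by 0.69 (adjusted p = 0.360).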

How the data were processed

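RNA of 12 laser captures was amplified (NuGen WT Ovation Pico) and hybridized to Bovine Affymetrix GeneChips. Per the methods, the authors made log2 values by RMA with quantile normalization over a larger set of arrays before they were deposited, and these 12 are part of it. Quantile normalization sets the arrays to one distribution, so a shift of most genes would not be seen. Of 24128 probe sets, 112 are controls and 13292 others have 1 symbol in the platform annotation. Since detection calls were not used here, the 10000 probe sets with the highest mean (at least 3.57) were tested with limma 3.58.1 in R 4.3.3, with tissue and cow as terms; the study fitted tissue alone. Series design and labels pair the captures by animal; deviations of paired arrays from their tissue means correlated at 0.026 to 0.201. A gene stands for its brightest tested probe set, which gave 5212 genes.

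The genes and lists were chosen with earlier results of these data known. Named are all probe sets of the 9 genes, list genes past the threshold, the 3 brightest that did not pass in each list, defining markers, and the 3 genes most correlated with a member over 12 arrays. Some further list genes and markers, C1QC, THY1 and CTSS among them, were named after their values were seen. Alternatives were fits without the block, with a random block, and with a trend and robust prior, other filters, quantile normalization again, centring on the median of tested probe sets, leaving out cows, and means over probe sets. The fit was tested on simulated data. The number of arrays limits the precision. Probe and protein sequences were not used here.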

Additional observations from a re-analysis of the deposited data

Results flagged for a closer look

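In 36 groups of 6 values (each of the 12 probe sets in epithelium, in stroma and as a within-cow difference), 3 had a highest or lowest value set apart from the others by Dixon's criterion for 6 values. Chance gives such a gap in about 1 of 20 groups. The difference of C3 in its brightest probe set was 3.27 in cow 3, with the other cows at -1.09 to -0.61. The third C3 probe set read 6.15 in the epithelium of cow 4, with the other epithelial captures at 2.40 to 3.13. The second SERPING1 probe set read 6.61 in the epithelium of cow 2, with the others at 4.61 to 4.92.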

How the results depend on the processing

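Of 330 values of single genes under an alternative, 291 stayed on the same side of the threshold in the same direction, 19 lost the call, 4 gained it and 16 changed sign, all of them in probe sets that had not passed. Without the replicate block 944 probe sets passed, with the same 5 of the 9 genes (C1R, C1S, C7, CFI and SERPING1), IL6 and 2 other complement genes in place of 3, since CLU was lost. With the cows as a random block 1096 passed, C4A being added to the other complement genes. The 9 genes gave 2 to 5 calls with 1 cow left out, 3 without cow 1, 2 without cow 2 and 3 without cow 4, and all probe sets 605 to 856. Without cows 5 and 6 there were 604 probe sets called and 3 of the genes (C1S, C7 and CFI). With all 24016 probe sets tested, 811 were called, with 4 of the 9 genes (C1R, C1S, CFI and SERPING1), C7 being lost. With the 5000 brightest probe sets, 513 were called, with 2 of 3 remaining genes (C1S and SERPING1) and 0 of the inducers, IL6 no longer being tested. The cause of these changes was not tested beyond the changed number of samples or probe sets. After centring on the median, 875 were called, 515 as higher in stroma and 360 the other way (58.9% in stroma, in place of 48.8%), and the 5 genes passed as before. The C3 difference turned to 0.0097 after centring, 0.18 without cows 5 and 6 and 0.013 with the mean over probe sets, and was -0.85 to 0.017 with 1 cow left out. Without cows 5 and 6 the second probe set of C3 gave -0.15 and that of SERPING1 -0.041, and with 1 cow left out they gave -0.055 to 0.49 and -0.12 to 0.73. CD46 turned to 0.13 after centring and ran from -0.20 to 0.092 with 1 cow left out, and C5AR2 from -0.77 to 0.67. With the mean over probe sets CD46 gave -0.54. C1QB and CFB did not pass under any of 14 alternatives (adjusted p down to 0.0959 and 0.222).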
